A study of Mus musculus with 2 samples.

Results

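The Toll-like receptors Tlr2, Tlr4, Tlr7 and Tlr13, their accessory chains Cd14, Ly96, Ly86 and Cd180 and the adaptor Myd88 were followed in GR-1+ cells of mouse mammary tumors, where they were taken by gene symbol and make up 9 of the 28692 genes in the files. Tumors were raised in the mammary fat pad of female BALB/c mice from 4T1p, the parental 4T1 breast carcinoma line that resists anti-PD1, or from 4T1m, a polyclonal derivative made by exposing 4T1 to the mutagen MNNG that responds to it. All mice of both groups were 8 to 10 weeks of age when the tumor cells were injected, and later received anti-PD1 for up to 2 weeks. Tumors were made into cell suspensions, cells binding the GR-1 antibody (which recognizes Ly6C and Ly6G) were pulled out with magnetic beads, and 1 droplet library per tumor line was sequenced from the 3′ ends of transcripts, with the number of tumors pooled in each library not given in the sources used here. With 1 library per tumor line no difference between the lines has a replicate check, and every interval given is a 95% interval that covers counting error only.

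Toll-like receptors recognize conserved microbial molecules and the debris of dying cells. Tlr4, with Ly96 (MD-2) and helped by Cd14, binds lipopolysaccharide, and Tlr2 binds bacterial lipoproteins together with Tlr1 or Tlr6, both at the cell surface. Tlr7 and Tlr13 sit in endosomes, where they sense single-stranded RNA and bacterial ribosomal RNA. Cd180 (RP105) is a relative of Tlr4 that has no signaling domain of its own and pairs with Ly86 (MD-1), a relative of Ly96. Myd88 carries the signal of most of these receptors to the IRAK kinases and NF-kB, a pathway that neutrophils, monocytes and macrophages share.

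Of 4390 barcodes, 3220 passed the limits of 250 to 5000 detected genes, 27000 UMIs (counted molecules) and the mitochondrial share that the study's methods set, 1128 of them from 4T1p and 2092 from 4T1m, and no barcode occurred in both libraries. The median UMI count over all barcodes was 2066 for the 4T1p label and 2763 for the 4T1m label, and the study's methods give each of these medians to the other tumor line, so the libraries are named here by their labels, and every direction between the tumor lines rests on those labels and would turn if they were exchanged. Clustering without the 9 genes and the other pathway genes gave 10 clusters. Of these, 4 held the monocyte and macrophage markers (monocytic-like, 613 cells in 4T1p and 692 in 4T1m), 4 the neutrophil markers (granulocytic-like, 251 and 1022 cells), 1 held B and T lymphocytes (9 and 56 cells), and 1 of low RNA content stayed unnamed (255 and 322 cells, median 899 UMIs). The median depth was 2358 UMIs in 4T1p and 9220.5 in 4T1m for monocytic-like cells and 2717 and 2482 for granulocytic-like cells. The study's methods also removed doublets and required a UMI of the leukocyte gene Ptprc, and the main comparisons here did neither. A Ptprc UMI was present in 48.8% of monocytic-like cells in 4T1p and 78.5% in 4T1m. For granulocytic-like cells these shares were 70.1% and 89.2%. Each of the 11 monocytic and 10 granulocytic markers had a UMI in the summed cells of both lineages in both libraries. The clusters were named from these lists, so the presence of a marker does not check the names.

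Levels are given as CPM, the UMIs of a gene in the summed cells of a group scaled to a total of 1e+06. Across the kept cells the 9 genes gave 41302 UMIs, from 298 for Ly96 to 29376 for Cd14, so the precision differs widely between genes. The map of levels by state and library shows the pattern. In the summed lineages Cd14, Tlr4 and Tlr13 were higher in granulocytic-like cells and Ly86, Cd180 and Tlr7 in monocytic-like cells of both libraries, but single states overlapped. In 4T1p Tlr4 was at 13.9 CPM (2.87 to 40.7) in the granulocytic-like Camp/Ngp/Ltf state, from 3 UMIs in 25 cells. It was at 32.8 (22.7 to 45.8) in the monocytic-like Thbs1/Vcan/Ahnak state, so these intervals overlap. In 4T1m the Tlr4 levels of the lineages did not overlap, with the lowest granulocytic-like state at 75.4 CPM and the highest monocytic-like state at 43.3. In 4T1m Cd14 was at 1710 CPM (1597 to 1829) in the granulocytic-like Slc2a3/Steap4/Prok2 state and at 1916 (1873 to 1960) in the Thbs1/Vcan/Ahnak state.

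**Figure D1:**
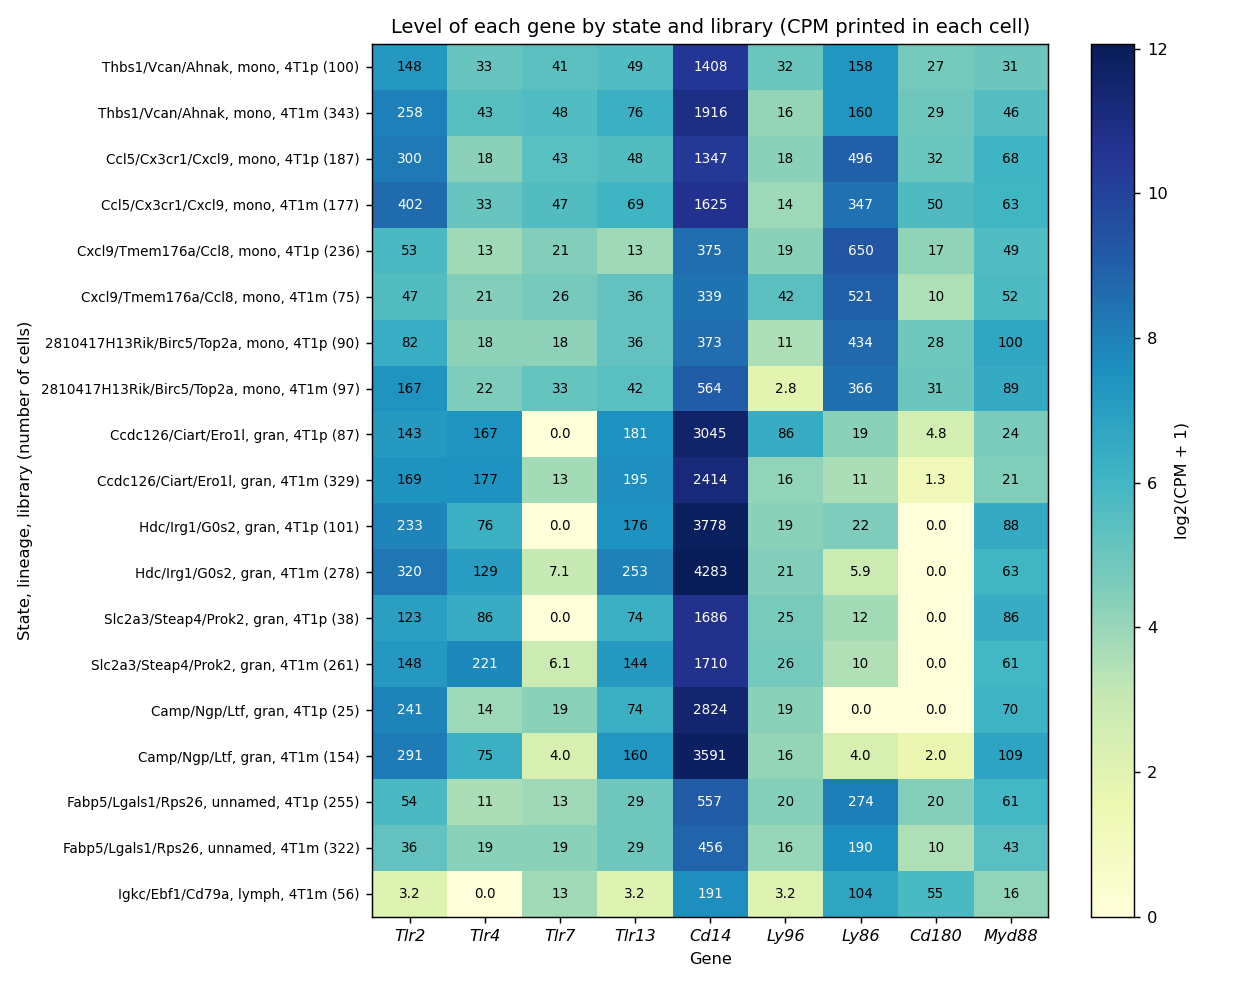
Level of each gene (columns) in each state and library of at least 20 cells (rows, with the lineage and number of cells), as CPM printed in the cell and as color on a log2(CPM + 1) scale. Cd14 reached 4283 CPM in the Hdc/Irg1/G0s2 state of 4T1m, while Cd180 was at 0 in 5 of the 8 granulocytic-like rows.

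Lineages were compared inside each library, and a gene was counted when its CPM differed at least 2-fold, provided that both groups together held 20 of its UMIs. In 4T1p, 3 of the 9 genes were at least 2-fold higher in granulocytic-like cells (Tlr4, Tlr13, Cd14) and 3 lower (Tlr7, Ly86, Cd180), beside 11% of all 8974 genes higher and 48.9% lower, in all 59.9%. In 4T1m, 2 were higher (Tlr4, Tlr13) and the same 3 lower, beside 10.1% of 10017 genes higher and 56.3% lower, in all 66.4%. The totals of 6 and 5 of 9 lie near this background, with a larger share of the members higher and a smaller share lower than among all genes. The median gene stood at a log2 ratio of -0.95 in 4T1p and -1.29 in 4T1m, so a gene of equal CPM was above most genes. Measured from that median, 48.3% of the called genes in 4T1p were higher in place of 18.4%, and 50.0% in 4T1m in place of 15.2%, and all 9 members were then at least 2-fold apart in 4T1m, 6 higher and 3 lower, and 8 of 9 in 4T1p, beside 58.9% and 52.6% of all genes. In thinned cells the shares were 32.9% and 26.2%.

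**Figure D2:**
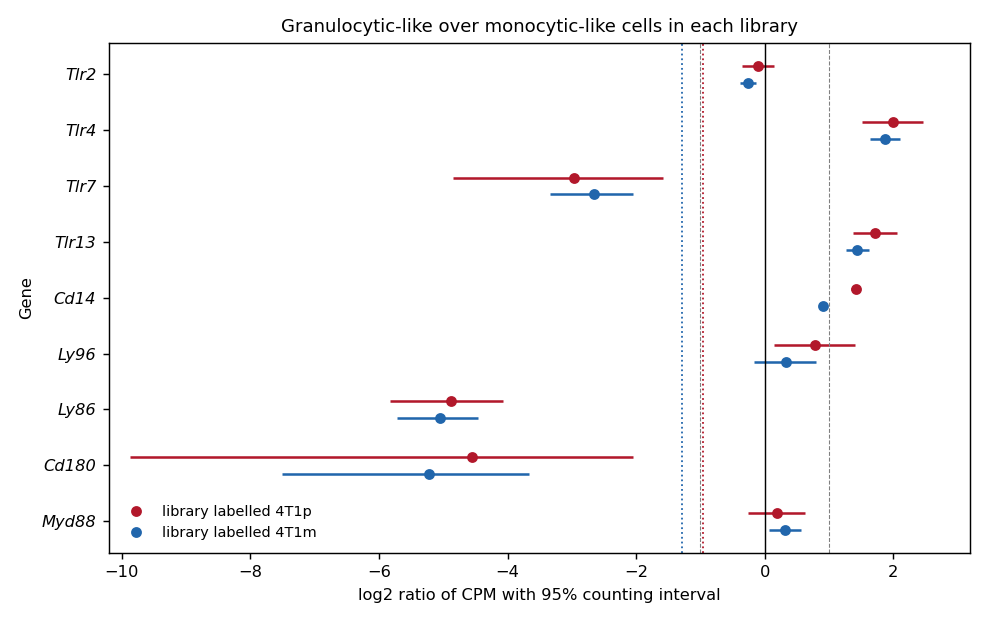
Log2 ratio of CPM in granulocytic-like over monocytic-like cells for each gene, red for the library labelled 4T1p and blue for 4T1m, with bars for the 95% counting interval, dotted lines for the median gene of each library and dashed lines at 2-fold. Tlr4 and Tlr13 lie right of the 2-fold line in both libraries, and Tlr7, Ly86 and Cd180 left of it.

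Transcripts of all 3 chains of the lipopolysaccharide receptor were counted in both lineages. Tlr4, the signaling chain, stood at 21.1 CPM (16.9 to 26.0) in monocytic-like cells of 4T1p and 38.0 (33.4 to 43.0) in those of 4T1m, against 83.8 (65.2 to 106) and 139 (126 to 152) in granulocytic-like cells. The granulocytic-like level was thus the higher one in both libraries, with log2 ratios of 1.99 (1.51 to 2.46) and 1.87 (1.64 to 2.10) and no overlap of intervals. After each cell was thinned to 1000 UMIs, Tlr4 was found in 9.61% (6.12 to 14.2) and 14.9% (12.7 to 17.4) of granulocytic-like cells but in 2.58% (1.34 to 4.46) and 3.58% (2.28 to 5.32) of monocytic-like cells.

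Cd14, the coreceptor that hands lipopolysaccharide to Tlr4 and Ly96, had 1174 CPM in monocytic-like cells of 4T1p and 1702 in those of 4T1m, against 3135 and 3185 in granulocytic-like cells. Its log2 ratio was 1.42 (1.35 to 1.49) in 4T1p and 0.90 (0.87 to 0.94) in 4T1m. The lineage difference was thus smaller in 4T1m, where the monocytic-like cells had more Cd14 and the granulocytic-like cells about the same. At equal depth 45.2% (40.6 to 49.8) and 63.5% (59.6 to 67.2) of monocytic-like cells and 74.2% (68.1 to 79.8) and 77.0% (74.2 to 79.7) of granulocytic-like cells had a Cd14 UMI.

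Ly96, the secreted chain that completes the binding site of Tlr4, was sparse. Its levels were 21.1 CPM (16.9 to 26.0) and 15.2 (12.4 to 18.5) in monocytic-like cells and 36.4 (24.6 to 52.0) and 19.1 (14.6 to 24.5) in granulocytic-like cells of 4T1p and 4T1m. The log2 ratio was 0.79 (0.14 to 1.4) in 4T1p and 0.33 (-0.16 to 0.80) in 4T1m, under 2-fold in both and with an interval that reaches 0 in 4T1m. Thinned to 1000 UMIs, it took the other sign in 4T1m at -0.38, so no direction is given there.

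Tlr13, the endosomal sensor of bacterial ribosomal RNA, followed Tlr4. It stood at 42.9 CPM (36.8 to 49.6) and 70.5 (64.3 to 77.2) in monocytic-like cells and at 141 (116 to 169) and 191 (176 to 207) in granulocytic-like cells of 4T1p and 4T1m, with log2 ratios of 1.72 (1.37 to 2.06) and 1.44 (1.26 to 1.62). At equal depth 11.8% (7.92 to 16.7) and 17.9% (15.5 to 20.5) of granulocytic-like cells had a UMI, against 3.01% (1.66 to 5) and 7.78% (5.83 to 10.1) of monocytic-like cells. Tlr13 lies on chromosome X of GRCm38 from 106143204 to 106160493 on the plus strand, and the bases of its RefSeq window that lie before this start are printed because the gene was at least 2-fold higher in granulocytic-like cells of both libraries. Capitals mark the letters AGGAAG, the core bound by the myeloid factor PU.1.
Tlr13, chrX:106143025-106143203, plus strand: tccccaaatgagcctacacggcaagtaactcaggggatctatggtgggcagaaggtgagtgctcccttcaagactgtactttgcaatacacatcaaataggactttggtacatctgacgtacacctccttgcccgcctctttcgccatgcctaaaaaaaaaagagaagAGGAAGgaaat

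The pair of Cd180 and Ly86 was found in monocytic-like cells. Ly86 had 427 CPM (408 to 448) and 243 (231 to 255) in monocytic-like cells of 4T1p and 4T1m, against 14.6 (7.53 to 25.4) and 7.31 (4.63 to 11) in granulocytic-like cells, where it gave 12 and 23 UMIs. Cd180, which needs Ly86 to reach the cell surface, had 28.5 CPM (23.6 to 34.1) and 35.7 (31.3 to 40.6) in monocytic-like cells and rested on 1 and 3 UMIs in granulocytic-like cells. The log2 ratios were -4.87 (-5.83 to -4.07) and -5.06 (-5.72 to -4.46) for Ly86 and -4.55 (-9.87 to -2.05) and -5.23 (-7.51 to -3.66) for Cd180. The Cd180 call in 4T1p was lost in thinned cells, where no granulocytic-like cell held a UMI. The value of -0.73 there comes from a floor of 3 counts put in place of 0 and is not an estimate of the difference. The study used Ly86 among the genes that name a progenitor cluster of these cells, so its level there is not independent evidence, and it was left out of the clustering here.

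The granulocytic-like level of Ly86 was 3.41% of the monocytic-like level in 4T1p and 3.01% in 4T1m, and that of Cd180 was 4.26% and 2.67%. The 11 monocytic markers summed together stood at 3.31% and 4.91% in the same way, with none of the 11 at 0 in granulocytic-like cells. Whether the granulocytic-like counts of Ly86 and Cd180 are background or expression was not tested.

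Lymphocytes offered a second view of the pair, since Cd180 is a known B cell surface protein. Among 36 cells with B cell markers Ly86 gave 31 UMIs, or 167 CPM (114 to 237), and Cd180 gave 17 UMIs, or 91.6 CPM (53.4 to 147). Among 27 cells with T cell markers they gave 1 and 0 UMIs. The parts of the RefSeq windows outside both genes, which lie on chromosome 13 of GRCm38 from 37345208 to 37419036 (Ly86) and from 102693558 to 102739629 (Cd180), both on the plus strand, are printed because both genes were at least 2-fold lower in granulocytic-like cells of both libraries, with the letters AGGAAG or their reverse complement in capitals.
Ly86, chr13:37345095-37345207, plus strand: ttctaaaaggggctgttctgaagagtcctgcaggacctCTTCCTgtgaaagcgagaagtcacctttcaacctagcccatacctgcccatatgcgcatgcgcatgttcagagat
Cd180, chr13:102693308-102693557, plus strand: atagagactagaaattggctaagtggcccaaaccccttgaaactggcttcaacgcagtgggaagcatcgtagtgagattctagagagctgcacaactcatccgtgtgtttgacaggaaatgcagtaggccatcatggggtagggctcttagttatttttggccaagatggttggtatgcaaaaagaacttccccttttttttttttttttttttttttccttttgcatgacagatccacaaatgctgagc

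RefSeq windows of GRCm38.p6, the 250 bases before the RefSeq start, were at hand for 5 of the 9 genes (Tlr2, Tlr13, Ly86, Cd180, Myd88). RefSeq places the start inside the GENCODE gene for 4 of them, so that 137 bases of the Ly86 window, 71 of the Tlr13 window, 159 of the Tlr2 window and all 250 of the Myd88 window lie in the gene as GENCODE draws it. The core AGGAAG was found on either strand in the windows of Ly86, Tlr13 and Tlr2, beside 29.55% of 32536 windows of the same length, so a match by itself is common. In the Ly86 window it lay 212 to 207 bases before the start on the other strand, counted from the RefSeq start, and in the Tlr13 window 82 to 77 bases before it. Neither of the 2 Cd180 windows held it or any of the other motifs searched on both strands. These were the composite site of PU.1 with an interferon regulatory factor (2.31% of windows), the interferon-stimulated element (2.98%), the NF-kB site (1.4%), TTGCNNAA for C/EBP (9.57%) and TATAAA for the TATA box (12.3%). The interferon-stimulated letters occurred in the Myd88 window as GAAAGCGAAA, 40 to 31 bases before the start, and TATAAA occurred there too.

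Tlr7, the endosomal receptor for single-stranded RNA, was also a monocytic-like gene. It had 37.8 CPM (32.2 to 44.2) and 46.2 (41.2 to 51.7) in monocytic-like cells of 4T1p and 4T1m and 4.86 (1.32 to 12.4) and 7.31 (4.63 to 11) in granulocytic-like cells, where it rested on 4 and 23 UMIs. The log2 ratios were -2.96 (-4.86 to -1.58) and -2.66 (-3.34 to -2.05), at 12.8% and 15.8% of the monocytic-like level, above the 3.31% and 4.91% of the monocytic markers. In thinned cells of 4T1p the Tlr7 value was -1.58, from too few UMIs to be counted.

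Tlr2, the lipoprotein receptor, was close to even between the lineages. Its levels were 216 CPM (203 to 231) and 294 (281 to 308) in monocytic-like cells and 201 (172 to 235) and 245 (228 to 263) in granulocytic-like cells of 4T1p and 4T1m. The log2 ratio was -0.10 (-0.35 to 0.14) in 4T1p and -0.26 (-0.38 to -0.14) in 4T1m. Its sign turned in 9 of 15 alternatives for 4T1p and 3 of 15 for 4T1m, so no direction is drawn. At equal depth 12.7% (9.80 to 16.1) and 17.6% (14.7 to 20.7) of monocytic-like cells and 18.3% (13.5 to 24.0) and 18.2% (15.8 to 20.8) of granulocytic-like cells had a UMI.

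Myd88, the shared adaptor, had 58.4 CPM (51.3 to 66.2) and 53.9 (48.5 to 59.8) in monocytic-like cells and 66.8 (50.3 to 86.9) and 67.0 (58.3 to 76.7) in granulocytic-like cells of 4T1p and 4T1m. The log2 ratios of 0.19 (-0.26 to 0.62) and 0.31 (0.06 to 0.56) were under 2-fold in CPM by counting error alone. Measured from the median gene Myd88 was at 1.14 and 1.61.

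At equal depth at least 1 of the 4 receptors was detected in 18.9% (15.5 to 22.8) and 29.1% (25.6 to 32.8) of monocytic-like cells and in 34.9% (28.8 to 41.5) and 42.6% (39.4 to 45.8) of granulocytic-like cells of 4T1p and 4T1m. These shares rest on 465 and 643 monocytic-like and 229 and 939 granulocytic-like cells, after 148, 49, 22 and 83 shallower cells were left out. Before thinning, a Cd14 UMI was present in 57.3% and 80.4% of monocytic-like and in 82.5% and 82.6% of granulocytic-like cells. Among the 27 cells with T cell markers (median 5361 UMIs), thinned the same way, Cd14 was seen in 1 cell (3.70%, 0.09 to 19.0) and the other 8 genes in 0 of 27, which allows a share of cells with a UMI of up to 11.1% by the floor of 3 counts and 12.8% by the exact interval. Without thinning, 3 of these 27 cells held 54 Cd14 UMIs, or 325 CPM (244 to 424). Tlr13, Ly96 and Ly86 then gave 1 UMI each and Myd88 gave 2.

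**Figure D3:**
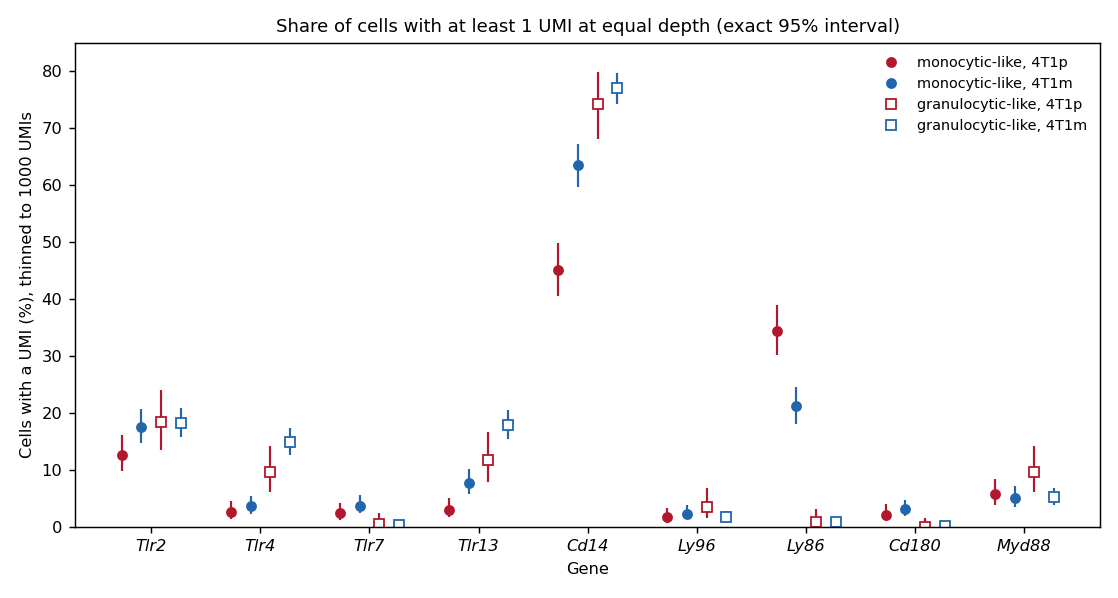
Share of cells with at least 1 UMI of each gene after thinning every cell to 1000 UMIs, filled circles for monocytic-like and open squares for granulocytic-like cells, red for 4T1p and blue for 4T1m, with exact 95% binomial intervals. Cd14 lies between 45.2% and 77.0%, and Ly86 is at 34.4% and 21.2% in monocytic-like cells but under 1% in granulocytic-like cells.

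Chains of a complex were also looked for in the same thinned cell. Tlr4 and Cd14 were found together in 99 of 939 granulocytic-like cells of 4T1m (10.5%, 8.65 to 12.7), beside the 11.5% that the product of their single shares gives, and in 18 of 229 of 4T1p (7.86%, 4.72 to 12.1), beside 7.13%. Tlr4, Ly96 and Cd14 together were found in 1 cell or none of each group. Cd180 with Ly86 was found in 2 and 4 monocytic-like cells, beside products of 3.44 and 4.23 cells. Tlr2 with Tlr1 or Tlr6 was found in 2 and 3 monocytic-like cells, beside 1.65 and 3.69. In granulocytic-like cells that count was 3 and 18, beside 4.59 and 15.1. Tlr2 with Cd14 stood above the product in monocytic-like cells, at 9.03% (6.59 to 12.0) beside 5.73% in 4T1p and 14.5% (11.8 to 17.4) beside 11.2% in 4T1m. Among granulocytic-like cells the same pair was at 15.3% (10.9 to 20.6) beside 13.6% and 15.9% (13.6 to 18.4) beside 14.0%. Tlr2 with Cd14 was looked at in addition to the complexes chosen beforehand. In the Cxcl9/Tmem176a/Ccl8 and 2810417H13Rik/Birc5/Top2a states both genes were lower than in the other monocytic-like cells. The part of pooling such states in the shares above the product was not tested.

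Inside the monocytic-like lineage, 4 states named by their leading genes differed in receptor content. They were the Thbs1/Vcan/Ahnak state (100 cells in 4T1p, 343 in 4T1m), the Ccl5/Cx3cr1/Cxcl9 state (187 and 177), the Cxcl9/Tmem176a/Ccl8 state (236 and 75) and the 2810417H13Rik/Birc5/Top2a state, led by cell division genes (90 and 97). Median depths over both libraries were 10621, 12998.5, 1393 and 1497 UMIs. Because the states are clusters of these cells, their differences are a description with no test.

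Tlr2 was highest in the Ccl5/Cx3cr1/Cxcl9 state in both libraries, at 300.1 CPM (278 to 323) in 4T1p and 402 (376 to 429) in 4T1m, with log2 ratios of 1.44 (1.21 to 1.67) and 0.74 (0.61 to 0.87) over the other monocytic-like cells, beside 3.29% and 4.61% of all genes at least 2-fold higher. It was lowest in the Cxcl9/Tmem176a/Ccl8 state, at 53.1 (35.3 to 76.7) and 46.9 (21.5 to 89.1). Against the other monocytic-like cells of the same library the latter had log2 ratios of -2.18 (-2.78 to -1.64) and -2.68 (-3.82 to -1.76), beside 24.6% and 18% of all genes at least 2-fold lower there. Cd14 followed, at 375 and 339 CPM in that state and 373 and 564 in the dividing state, against 1347 to 1916 in the other two. Ly86 ran the other way, at 650.1 CPM (583 to 723) in 4T1p and 521 (424 to 634) in 4T1m in the Cxcl9/Tmem176a/Ccl8 state and 158 and 160.1 in the Thbs1/Vcan/Ahnak state. The latter was lower in Ly86 than the rest of its lineage by log2 ratios of -1.71 (-1.95 to -1.48) and -1.17 (-1.32 to -1.03), with 8.69% and 6.9% of all genes at least 2-fold lower.

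The granulocytic-like states were the Ccdc126/Ciart/Ero1l state (87 cells in 4T1p, 329 in 4T1m), the Hdc/Irg1/G0s2 state (101 and 278), the Slc2a3/Steap4/Prok2 state (38 and 261) and the Camp/Ngp/Ltf state, led by genes of secondary granules (25 and 154). Cd14 was highest in the Hdc/Irg1/G0s2 state, at 3778 CPM (3567 to 3998) in 4T1p and 4283 (4145 to 4425) in 4T1m, and lowest in the Slc2a3/Steap4/Prok2 state, at 1686 and 1710. Tlr4 was at 167 (116 to 232) and 177 CPM in the Ccdc126/Ciart/Ero1l state, at 86.2 and 221 (181 to 266) in the Slc2a3/Steap4/Prok2 state, and at 13.9 and 75.4 in the Camp/Ngp/Ltf state. The Camp/Ngp/Ltf state was below the other granulocytic-like cells in Tlr4 by log2 ratios of -2.96 (-5.28 to -1.35), from 3 UMIs in 4T1p, and -1.16 (-1.53 to -0.80), beside 40% and 27.5% of all genes at least 2-fold lower. Myd88 was lowest in the Ccdc126/Ciart/Ero1l state, at 23.9 and 21.4 CPM from 5 and 17 UMIs, with log2 ratios of -1.77 (-3.45 to -0.45) and -1.95 (-2.76 to -1.23) beside 16.3% and 15.5% of all genes at least 2-fold lower, and was 109 CPM (89.7 to 132) in the Camp/Ngp/Ltf state of 4T1m.

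Ordered by level over the 8 states, most neighbors could not be told apart by counting alone, other than those of Cd14 in 4T1m. Of 7 neighboring pairs, Cd14 had 3 with separate intervals in 4T1p and 6 in 4T1m, Ly86 had 3 and 2, Tlr2 had 1 and 3, Tlr4 had 1 and 2 and Tlr13 had 1 and 1. Myd88 had 0 and 1, Ly96 1 and 0, and Tlr7 and Cd180 had 0 in both libraries.

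The unnamed low-RNA cluster, which led with Fabp5, Lgals1 and Rps26, had Ly86 at 274 CPM (227 to 327) in 4T1p and 190.1 (156 to 229) in 4T1m and Cd14 at 557 and 456 CPM. A share of 13.7% and 20.2% of its cells had a UMI of the leukocyte gene Ptprc. Fibroblast markers, which were at 2.24 CPM there in 4T1p with 4 of 5 genes at 0, summed to 461 CPM in 4T1m with all 5 detected. Monocytic markers stood at 17886 and 14565 CPM there with all 11 detected, and dendritic markers at 0 and 173 CPM with 6 and 3 of 6 genes at 0. Endothelial markers were at 162 and 31.1 CPM with 0 and 2 of 4 at 0. Epithelial and tumor markers were at 195 CPM in 4T1p and 117.5 in 4T1m, with 5 of 6 genes detected in each. In monocytic-like cells these last were at 21.3 and 7.68 CPM, and in granulocytic-like cells at 35.2 and 26.4. The part of all these marker genes in the levels of the unnamed cluster was not tested.

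Across the 19 groups of state and library, each gene's level was correlated with that of 6402 genes as a description, since groups share libraries and depth. Cd14 was most like the chemokine Cxcl2 (Pearson's r = 0.97), Rab20 (0.953) and Trib1 (0.948). Ly86 was most like H2-DMa (0.987), a chaperone of class II antigen loading, with Erp29 (0.982) and Ms4a6b (0.98). Tlr4 was nearest to Pfkfb3 (0.944), an activator of glycolysis, and to Cd84 (0.932), Tlr13 to Rnf149 (0.955) and Rabgef1 (0.951), and Tlr7 to Rasa4 (0.93) and Acp2 (0.903). Tlr2 was nearest to the cytokine Osm (0.848), and then to Cd14 itself (0.835). Cd180 was nearest to Polr3d (0.96), Myd88 to Rab8a (0.81) and Ly96, from 298 UMIs, to Apba3 (0.783). Each neighbor is the best of 6402 genes over 19 groups, and how high such a best value runs for unrelated genes was not tested. Among the 9 genes the highest values were 0.916 for Tlr13 with Cd14, 0.901 for Tlr4 with Tlr13, 0.835 for Tlr2 with Cd14 and 0.814 for Ly86 with Cd180, and the lowest was -0.744 for Cd14 with Ly86.

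The comparison of tumor lines asks whether GR-1+ cells of a tumor that responds to anti-PD1 differ from those of one that does not, here inside each lineage. None of the 9 genes was 2-fold apart between the libraries in monocytic-like cells, and none of the 8 with 20 UMIs in granulocytic-like cells, beside 11.6% of 10294 genes (8.67% higher, 2.93% lower) and 14.6% of 6368 genes (9.01% higher, 5.62% lower). The median gene was at 0.11 and 0.04 on the log2 scale, and centring on it moved the share of called genes that were higher in monocytic-like cells from 74.7% to 59.9%. Of the members' intervals, 6 lay above 0 and 2 below in monocytic-like cells, and 3 above and 1 below in granulocytic-like cells. The share of all genes that meet this rule was not counted, so these counts have no background. In monocytic-like cells the intervals of Tlr7 and Cd180 include the median gene at 0.11. Erythroid markers moved with the library, at 8.14 CPM in monocytic-like cells of 4T1p and 1451 in those of 4T1m, and at 24.3 and 403 in granulocytic-like cells, and their part in these ratios was not tested. Neither was that of the depth gap between monocytic-like cells.

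**Figure D4:**
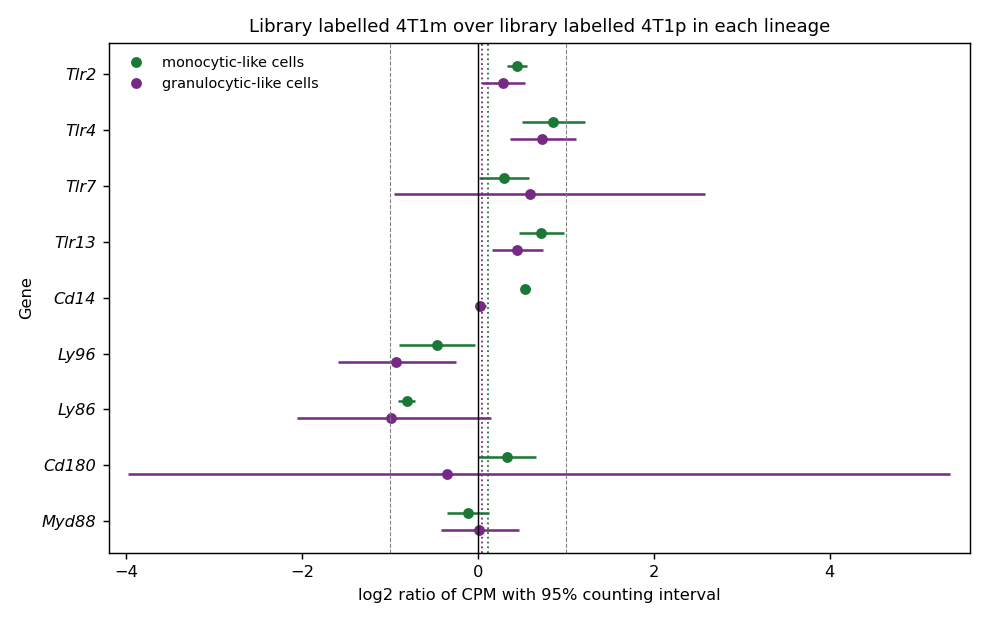
Log2 ratio of CPM in the library labelled 4T1m over that labelled 4T1p for each gene, green for monocytic-like and purple for granulocytic-like cells, with bars for the 95% counting interval, dotted lines for the median gene of each lineage and dashed lines at 2-fold. Tlr2, Tlr4 and Tlr13 lie right of 0 in both lineages with intervals that leave it out, and Ly96 lies left of 0 in both.

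Tlr4 was higher in 4T1m in both lineages, by a log2 ratio of 0.85 (0.49 to 1.22) in monocytic-like cells, from 21.1 to 38.0 CPM, and 0.73 (0.36 to 1.11) in granulocytic-like cells, from 83.8 to 139. Tlr13 was higher by 0.72 (0.47 to 0.97) and 0.44 (0.15 to 0.74), and Tlr2 by 0.44 (0.33 to 0.56) and 0.28 (0.04 to 0.53). All 6 values stayed above 0 in each of 15 alternatives. In monocytic-like cells Tlr13 passed 2-fold at 1.10 with the mean of single-cell CPM and 1.36 in thinned cells, and Tlr4 at 1.15 with the mean of single-cell CPM, beside 24.1% and 20.1% of all genes under these settings. Cd14 was higher in 4T1m by 0.54 (0.49 to 0.58) in monocytic-like cells and was at 0.02 (-0.04 to 0.09) in granulocytic-like cells, where 4 of 15 alternatives took the other sign.

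Ly86 was lower in 4T1m, by a log2 ratio of -0.81 (-0.91 to -0.72) in monocytic-like cells, from 427 to 243 CPM, and the unnamed cluster had -0.53 (-0.91 to -0.14). When the 4 monocytic-like states were weighted equally the value shrank to -0.32, a setting added after the data were seen. The states with the most cells differed, the Cxcl9/Tmem176a/Ccl8 and Ccl5/Cx3cr1/Cxcl9 states in 4T1p (236 and 187 of 613 cells) and the Thbs1/Vcan/Ahnak state in 4T1m (343 of 692). The ratio rests on summed UMIs, not on cells. Of the Ly86 UMIs, the Ccl5/Cx3cr1/Cxcl9 state gave 1156 of 1785 in 4T1p and 757 of 1613 in 4T1m. The Cxcl9/Tmem176a/Ccl8 state gave 343 and 100, and the Thbs1/Vcan/Ahnak state 164 and 625. The part of state makeup in the Ly86 difference was not tested. The summed monocytic markers were at 33399 CPM in 4T1p and 18263 in 4T1m.

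Ly96 was at -0.47 (-0.90 to -0.04) and -0.93 (-1.59 to -0.25), from 88 and 101 UMIs in monocytic-like and 30 and 60 in granulocytic-like cells. Its monocytic-like value turned to 0.45 in thinned cells, so no direction is drawn there. Myd88 was at -0.12 (-0.35 to 0.13) and 0.01 (-0.43 to 0.46), under 2-fold by counting intervals in both lineages. With 1 library per tumor line, these intervals cannot exclude a 2-fold difference between the lines. Over 15 alternatives Myd88 ran from -0.22 to 0.01 in monocytic-like and from -0.86 to 0.25 in granulocytic-like cells. The granulocytic-like value took the other sign in 6 of the 15. Tlr7 was at 0.29 (0.01 to 0.58) and Cd180 at 0.33 (0.00 to 0.66) in monocytic-like cells, and both were too sparse in granulocytic-like cells, with 27 and 4 UMIs, for a difference under 2-fold to be detectable at this depth.

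Within the 8 named states the library differences of Tlr4 and Tlr13 kept their sign, while Tlr2 was at -0.18 (-1.45 to 0.95) in the Cxcl9/Tmem176a/Ccl8 state and, in the unnamed cluster, at -0.57 (-1.49 to 0.34) from 24 UMIs in 4T1p and 21 in 4T1m. Counting only named states with 20 UMIs of the gene, Tlr4 was higher in 4T1m in 2 of 2 monocytic-like and 4 of 4 granulocytic-like states, from 0.09 (-0.46 to 0.66) in Ccdc126/Ciart/Ero1l to 2.44 (0.84 to 4.75) in Camp/Ngp/Ltf, the latter from 3 UMIs in 4T1p, and with 1.36 (0.26 to 2.70) in Slc2a3/Steap4/Prok2 from 7 UMIs in 4T1p. Tlr13 was higher in 3 of 3 and 4 of 4 states, with 2 intervals of each lineage above 0 and the highest value, 1.11 (0.36 to 1.95), in Camp/Ngp/Ltf, and Tlr2 in 3 of 4 and 4 of 4. Intervals above 0 numbered 1 monocytic-like and 3 granulocytic-like for Tlr4, and 3 and 1 for Tlr2. The states are parts of the same 2 libraries, so their signs are not repeats. The share of all genes that keep the same sign over them was not counted. In the dividing state Tlr2 rested on 23 and 60 UMIs and was at 1.03 (0.32 to 1.80), in the Thbs1/Vcan/Ahnak state at 0.80 (0.55 to 1.05) and in the Ccl5/Cx3cr1/Cxcl9 state at 0.42 (0.28 to 0.57). The share of all genes at least 2-fold apart between the libraries was 14.4%, 10.8% and 10.3% in these states, 16.3% in Cxcl9/Tmem176a/Ccl8, 18.7% in Ccdc126/Ciart/Ero1l, 18.4% in Hdc/Irg1/G0s2, 20.6% in Slc2a3/Steap4/Prok2, 24.4% in Camp/Ngp/Ltf and 15.6% in the unnamed cluster.

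Ly86 was at 0.02 (-0.23 to 0.28) inside the Thbs1/Vcan/Ahnak state, -0.52 (-0.65 to -0.38) inside the Ccl5/Cx3cr1/Cxcl9 state, -0.32 (-0.65 to 0.01) inside the Cxcl9/Tmem176a/Ccl8 state and -0.25 (-0.61 to 0.12) inside the dividing state. Only the second of these lies outside counting error, and all 4 are smaller in size than the -0.81 of the lineage. Cd14 was above 0 in 3 of 4 monocytic-like states, from -0.15 (-0.57 to 0.26) to 0.60 (0.25 to 0.95), and in granulocytic-like states it ranged from -0.33 (-0.46 to -0.20) in Ccdc126/Ciart/Ero1l to 0.35 (0.22 to 0.47) in Camp/Ngp/Ltf. In the unnamed cluster Cd14 was lower in 4T1m, at -0.29 (-0.54 to -0.03) from 248 UMIs in 4T1p and 264 in 4T1m. Ly96 was lower by -2.39 (-3.54 to -1.28) in the Ccdc126/Ciart/Ero1l state, from 18 UMIs in 87 cells of 4T1p to 13 in 329 cells of 4T1m, and was at -1.0 (-1.63 to -0.35) in the Thbs1/Vcan/Ahnak state.

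**Figure D5:**
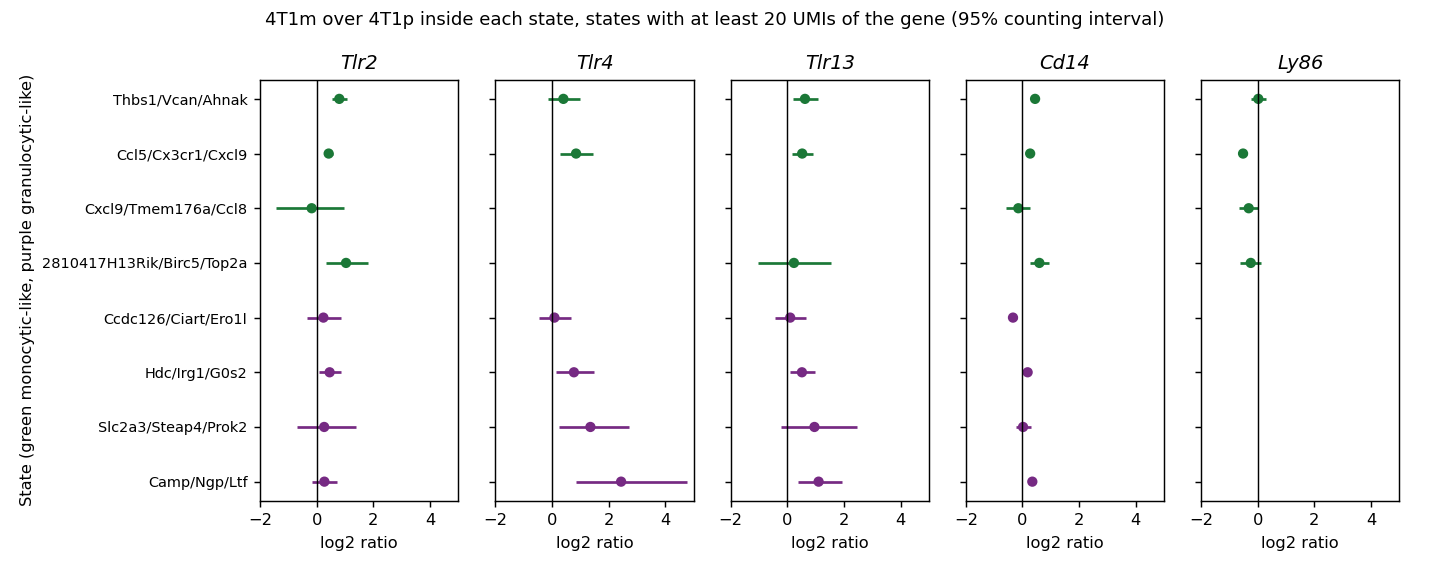
Log2 ratio of CPM in 4T1m over 4T1p inside each state (rows) for Tlr2, Tlr4, Tlr13, Cd14 and Ly86, green for monocytic-like and purple for granulocytic-like states, for states with at least 20 UMIs of the gene, with 95% counting intervals. Points of Tlr4 and Tlr13 all lie right of 0, from 0.09 to 2.44 and from 0.10 to 1.11, while those of Cd14 fall on both sides.

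The rest of the pathway was read from 6 lists of 59 genes, whose medians stand beside the -0.95 and -1.29 of all genes in the lineage comparison. The 11 genes that fold, move and process the receptors were almost all lower in granulocytic-like cells, 10 of 11 by at least 2-fold in each library (beside 48.9% and 56.3% of all genes), with medians of -2.38 and -2.17. Unc93b1, which carries Tlr7 and Tlr13 to endosomes, had 481 and 326 CPM in monocytic-like and 92.3 and 55.6 in granulocytic-like cells of 4T1p and 4T1m, log2 ratios of -2.38 (-2.73 to -2.05) and -2.55 (-2.78 to -2.33). Hsp90b1, the chaperone of most of these receptors, was at -3.01 and -3.00, and the protease Ctss at -4.16 and -4.32. Tmed7 was the gene under 2-fold, at -0.67 in both libraries.

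Of 8 other receptors, 5 in 4T1p and 6 in 4T1m had 20 UMIs. Tlr6, a partner of Tlr2, was higher in granulocytic-like cells in both libraries, at 53.4 against 7.42 CPM in 4T1p, a log2 ratio of 2.85 (2.15 to 3.56), and 40.0 against 11.3 in 4T1m, 1.83 (1.4 to 2.26). Tlr1 was at 0.12 (-0.57 to 0.75) and 0.85 (0.48 to 1.21). Tlr3 and Tlr12 gave 0 UMIs in granulocytic-like cells of both libraries and 34 and 67 in monocytic-like cells of 4T1p and 41 and 45 in those of 4T1m. With a floor of 3 counts in place of 0, they were 2.24-fold and 4.41-fold lower in 4T1p and 6.48-fold and 7.11-fold lower in 4T1m. These folds are not lower limits, since the log2 intervals reach up to -0.78 and -1.80 in 4T1p and -2.33 and -2.47 in 4T1m. Tlr8 was at -1.60 (-2.36 to -0.91) in 4T1m and at -0.93 (-3.29 to 0.76) in 4T1p.

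Adaptors and kinases moved both ways. Of 15 with 20 UMIs, 3 were at least 2-fold higher and 5 lower in granulocytic-like cells of 4T1p, and 2 higher and 6 lower in those of 4T1m, beside 11% and 10.1% of all genes higher and 48.9% and 56.3% lower, with medians of -0.51 and -0.47. Tirap, which bridges Tlr2 and Tlr4 to Myd88, was higher at 1.79 (1.04 to 2.52) and 1.81 (1.41 to 2.23), and Irak2 at 2.23 (1.95 to 2.52) and 1.75 (1.60 to 1.91). Ticam1 (TRIF), the adaptor of the interferon branch, was lower at -2.54 (-5.62 to -0.62) and -2.60 (-3.85 to -1.56), and Irak1 at -1.72 and -2.26. Of genes with more UMIs than Irak1, Tab2 was at -0.71 and -0.47, Ikbkb at -1.22 and -1.36 and Tbk1 at 1.31 and 0.64.

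Of the inhibitors, 4 of 10 were higher and 1 lower in granulocytic-like cells of 4T1p, and 3 higher and 1 lower in 4T1m, beside the same shares of all genes, with medians of 0.85 and 0.67. Irak3, a kinase-dead brake on Irak signaling, was at 1.71 (1.08 to 2.32) and 1.14 (0.87 to 1.4), and Pik3ap1 at 2.31 and 2.01. Nfkbia, the NF-kB inhibitor that NF-kB itself induces, was at 8693 CPM against 2980 in 4T1p and 6295 against 3219 in 4T1m, log2 ratios of 1.54 (1.5 to 1.59) and 0.97 (0.94 to 1.00). Tnip3 went the other way, with 0 UMIs in granulocytic-like cells of 4T1p and 4 in those of 4T1m against 200 and 646 in monocytic-like cells. Nfkbiz was at 0.66 (0.56 to 0.77) and 1.01 (0.96 to 1.06), and Tnfaip3 at 0.86 (0.74 to 0.99) and 0.54 (0.47 to 0.61), both with more UMIs than Irak3 or Pik3ap1.

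Of 8 transcription factors, 0 were higher and 1 and 2 lower by 2-fold in granulocytic-like cells of 4T1p and 4T1m. Among all genes 11% and 10.1% were higher and 48.9% and 56.3% lower. Medians of the factors were -0.23 and -0.32. Irf5, which acts below Tlr7, was lower in both libraries at -1.85 (-2.48 to -1.28) and -3.00 (-3.53 to -2.51). Of 5 genes that capture ligand, Lbp and Treml4 were higher in both libraries, Lbp from 17 and 49 UMIs in granulocytic-like cells, while Cd36 and Mertk were lower in both and Hmgb1 was lower in 4T1m. These calls stand beside the same shares of all genes, and the list had medians of -0.71 and -1.23.

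Between the libraries 3 of 8 transcription factors were 2-fold apart in monocytic-like and 5 of 8 in granulocytic-like cells, beside 11.6% and 14.6% of all genes. The NF-kB subunits Nfkb1 and Rel were higher in 4T1m in both lineages, Nfkb1 by 1.44 (1.31 to 1.57) in monocytic-like cells, from 144 to 389 CPM, and 1.12 (0.75 to 1.52) in granulocytic-like cells, and Rel by 1.26 (1.13 to 1.38) and 1.03 (0.77 to 1.30). Irf7, the interferon-induced factor below Tlr7, was lower in the library labelled 4T1m in both, by -1.76 (-1.91 to -1.61), from 287 to 84.7 CPM, and -1.91 (-2.21 to -1.61). In all 2 of 8 factors were higher and 1 lower in monocytic-like cells, and 2 higher and 3 lower in granulocytic-like cells, where Irf3 and Irf5 joined Irf7.

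The calls in the other lists stand beside the same 11.6% of all genes in monocytic-like and 14.6% in granulocytic-like cells. Of the adaptors and kinases, 2 of 16 (Traf6 at 1.04 and Tbk1 at 1.01) were 2-fold higher in monocytic-like cells of 4T1m. In granulocytic-like cells Ikbke alone was 2-fold apart, at -1.10 (-1.87 to -0.30). Of the inhibitors, Irak3, Tnip3 and Pik3ap1 were higher in monocytic-like cells of 4T1m, at 1.32, 1.02 and 1.13, and in granulocytic-like cells Cyld was higher at 1.68 (0.98 to 2.46) and Socs1 lower at -2.07 (-2.57 to -1.58). Of the other receptors, Tlr8 was higher in monocytic-like cells at 1.47 (0.88 to 2.11) and Tlr12 lower at -1.24 (-1.82 to -0.68), and none of 3 with 20 UMIs was 2-fold apart in granulocytic-like cells. None of the genes of folding, transport and processing was 2-fold apart in either lineage. Of the genes that capture ligand, Cd36 was higher in monocytic-like cells at 1.66 (1.11 to 2.26) and Hmgb1 lower in granulocytic-like cells at -1.27 (-1.70 to -0.83).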

How the data were processed

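The authors deposited, per the file headers, filtered Cell Ranger matrices for 2 droplet libraries of GR-1+ cells, whose values are raw counts of UMIs and whose reads were aligned to mm10 (GRCm38, Ensembl 93). The headers name version 3.1.0 and the methods another one. Ribosomal artifact genes Gm42418 and AY036118 were left out. Doublets were kept, and alternatives left out the barcodes with the highest Scrublet scores (13 in 4T1p and 44 in 4T1m, a number set by a rate of 1% per 1000 barcodes) or those without a Ptprc UMI. Clusters came from Seurat 5.3.0 and sctransform 0.4.2 in R 4.3.3 (3000 variable features without the 9 genes and the 59 pathway genes, 11 principal components, resolution 0.8), and were named from marker lists. UMI counts were summed per group and compared as CPM (Python 3.11.15, scipy 1.17.1), with exact Poisson intervals for levels, exact binomial intervals for ratios and exact Clopper-Pearson intervals for shares, and a floor of 3 counts for 0. PCR and capture make these limits of counting only. Kept cells summed to 5570882 UMIs in 4T1p and 10831715 in 4T1m. Scripts were tested on simulated data. With 1 library per tumor line no p-value is given. Likeness used log2(CPM + 10) over groups of at least 20 cells and genes with 200 UMIs. Named genes were the 9 members, the pathway lists and the most alike genes. The genes of a list given with values were not always those with the most UMIs. The members and lists were chosen with earlier results of these data known. Gene places are from GENCODE vM21 on the same build. In all 18 alternatives were tried, 2 of them added after the data were seen.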

Additional observations from a re-analysis of the deposited data

Results flagged for a closer look

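Barcodes removed by the mitochondrial limit or by the upper limits of UMIs and genes still carried the 9 genes. Barcodes over the mitochondrial limit had a summed level of 1009 CPM in 4T1p and 1582 CPM in 4T1m. Barcodes over the UMI or gene limit had 1504 CPM and 1651 CPM (1503.5 and 1651.19 before rounding). All 4 values are listed because they come from cells outside the comparisons and lie above the limit that a count of 0 allows. Most of each sum was Cd14, at 591 and 1048 CPM over the mitochondrial limit and at 809.9 and 1023 over the UMI or gene limit. Tlr4 was at 28.2 CPM in 4T1p and 68.7 in 4T1m over the mitochondrial limit. Barcodes under the gene minimum (170 in 4T1p and 95 in 4T1m) held 28 and 27 UMIs of the 9 genes, or 96.3 and 121 CPM. They had 0 UMIs of Tlr7, Tlr13 and Cd180 in both libraries. These barcodes were not split by lineage, so their order of libraries cannot be set beside that inside a lineage. The kept cells differ in makeup, with 613 monocytic-like and 251 granulocytic-like cells in 4T1p and 692 and 1022 in 4T1m.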

How the results depend on the processing

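Of 539 values of the members' log2 ratios under the alternatives, 455 moved by less than their counting interval, 84 moved by more and 0 called values turned sign, and 25 of 36 ratios kept one direction in each alternative tried, while 11 took the other sign in some, among them Tlr2 between lineages in 4T1p (-0.32 to 0.85). The number of members at least 2-fold apart between the lineages in 4T1m rose from 5 to 9 when ratios were centred on the median gene (66.4% and 58.9% of all genes). Between the libraries, 0 in monocytic-like cells became 1 (Ly86) with at most 5% mitochondrial UMIs (14.6% of all genes), 2 (Tlr4, Tlr13) with the mean of single-cell CPM (24.1%), 1 (Tlr13) in thinned cells (20.1%) and 3 at 1.5-fold (32.7%). In granulocytic-like cells 0 became 2 with at most 5% mitochondrial UMIs (15.3%), 2 with at least 500 genes (14.7%), 4 at 1.5-fold (36.3%), and 1 each with log-normalization (14.05%), lineage by marker UMIs (15.3%), centred ratios (14.1%), the mean of single-cell CPM (18.6%) and thinned cells (17.9%). The cause of these moves was not tested, apart from the looser fold at 1.5. Over all genes, 5378 and 6652 called between lineages in 4T1p and 4T1m became 8804 and 10069 with no minimum of UMIs, 2892 and 4186 at 100 UMIs and 2320 and 3463 in thinned cells, where fewer genes were tested. The 1194 and 932 called between libraries in monocytic-like and granulocytic-like cells became 3614 and 5045 with no minimum, 627 and 273 at 100 UMIs and 3362 and 2311 at 1.5-fold, and 1194 became 2481 with the mean of single-cell CPM. Depth limits Ly96, Cd180 and Tlr7 most. No paired analysis was possible because each tumor line has 1 library.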
